A study of Mus musculus with 2 samples.

Results

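The guide strands of miR-26 and miR-101, which are mmu-miR-26a, mmu-miR-26b, mmu-miR-101a and mmu-miR-101b, were measured in embryonic mammary tissue. They were taken as the probes on both arrays that are not controls and carry one of these names, which gave 4 of the 696 mouse miRNAs on the arrays. All 4 were detected in both regions, as were 284 miRNAs in all.

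Total RNA came from untreated embryos of ICR mice at E13.5. One group was the 3rd mammary gland, called the gland from here on. The other was the inter mammary gland region, the flank that lies between the 3rd and 4th glands, called the flank from here on. From each region 100 ng of RNA was labelled with Cy3 and hybridized to 1 Agilent 1-colour miRNA array, and the arrays shared a slide and a scan. The sources used here do not say how many embryos gave RNA to each sample. With 1 array per region there were no replicates and no test was run, so the differences have no replicate check, and the spread over spots given here is technical only. The arrays were put on 1 scale by the upper quartile (75th percentile) of the probes that both detected, called the main scaling, and 4 other scalings were tried: none, the upper quartile over all probes, the median of the detected probes and quantile normalization.

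A miRNA is loaded into an Argonaute protein and pairs with messenger RNAs through its seed, the bases near its 5′ end, which lowers the translation or the stability of those messengers. The miR-26 and miR-101 families are both known to repress Ezh2, the catalytic subunit of the Polycomb repressive complex that methylates histone H3 and silences developmental genes. Ezh2 messenger RNA and protein were not measured on these arrays.

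The members differed little between the regions, and 0 of the 4 reached 1.5-fold in either direction. Across the 284 miRNAs detected in both regions, 6 (2.11%) were higher in the gland by 1.5-fold or more and 26 (9.15%) were lower by as much, so a count of 0 among 4 is near this background. These counts moved with the scaling between the arrays, to 15 higher and 23 lower with none and to 19 higher and 22 lower with the upper quartile over all probes, while 0 of the 4 members reached 1.5-fold under any of the 5 scalings. The log2 ratio of the gland to the flank with the main scaling was 0.36 for miR-26b, 0.21 for miR-26a and 0.11 for miR-101a. The main scaling gave the lowest values of the 5, and with the other 4 these ratios were 0.42 to 0.52, 0.33 to 0.40 and 0.23 to 0.35. For miR-101b it was -0.11 with the main scaling but between 0.01 and 0.05 with the other 4, so miR-101b had no settled direction. Since these are bulk samples, fewer cells of a type and less RNA per cell cannot be told apart.

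The mature sequences are shown because the members of each family differ at few bases, which bears on how separately their probes can read them. All 4 had a sequence in RefSeq (build GRCm38.p6), given here 5′ to 3′ with bases 2 to 8, the seed, in capitals.
miR-26a: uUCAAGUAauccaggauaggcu
miR-26b: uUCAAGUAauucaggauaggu
miR-101a: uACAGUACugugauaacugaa
miR-101b: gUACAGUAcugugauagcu
The miR-26 members had the same seed, UCAAGUA, and 19 of 21 aligned bases were identical. Counted from 1 at the 5′ end of miR-26a, the substitutions from miR-26a to miR-26b were C11U and C21U, and miR-26a was 22 bases long against 21. For miR-101, RefSeq starts miR-101b 1 base earlier, so bases 2 to 8 are ACAGUAC in miR-101a and UACAGUA in miR-101b, although bases 3 to 9 of miR-101b spell the seed of miR-101a. With that shift 17 of 18 aligned bases were identical, and the substitution from miR-101a to miR-101b, counted from the 5′ end of miR-101a, was A16G. How far a probe of one member also binds the other was not tested, and the probe sequences were not used here.

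By position, each miR-26 gene lies within a gene for a small phosphatase of the carboxy-terminal domain (CTD) of RNA polymerase II. Mature miR-26a is encoded at chr9:119031811-119031832 on the plus strand within Ctdspl and at chr10:126995543-126995564 on the plus strand within Ctdsp2. Both loci give the same mature sequence, so the array reads their sum. Mature miR-26b lies at chr1:74394324-74394344 on the plus strand within Ctdsp1. Mature miR-101a lies at chr4:101346957-101346977 on the minus strand, within no protein-coding gene of the annotation, and miR-101b at chr19:29135338-29135356 on the plus strand within Rcl1, a gene for a protein of ribosomal RNA processing. Coordinates are those of GRCm38.p6.

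Each member was read by 2 probes with 10 spots each, and the signals below are background-subtracted intensities before scaling unless called scaled. With the main scaling intensities were divided by their upper quartile, 786 in the gland and 719 in the flank. Signals of different miRNAs say little of their relative abundance, because probes differ in how well they bind, so each miRNA was set only against itself in the other region. Each array had 434 negative control spots, and those the software marked as outliers were left out. The rest averaged 3.81 ± 5.28 (SD, 432 spots) in the gland and 2.23 ± 5.07 (SD, 428 spots) in the flank. Their highest values were 17.3 and 19.2, and every spot used for the members lay above these.

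miR-26a, the form that 2 loci encode, was well above background on both arrays. On probe 1 its spots ran from 2222 to 2508 (median 2359) in the gland, and from 1692 to 1887 (median 1830) in the flank. On probe 2 they ran from 3576 to 4866 (median 4350.3), and from 3069.95 to 3694 (median 3475). After scaling, the spot ranges of the regions were apart on probe 1 and overlapped on probe 2. The scaled signal was 4.22 ± 0.0739 (SE over spots) in the gland and 3.65 ± 0.0452 in the flank, a ratio of 1.16 and a log2 ratio of 0.21 ± 0.03 (SE over spots). Set spot by spot at the same positions of the arrays, 19 of 20 scaled spots were higher in the gland, and the SD of their log2 ratios was 0.12.

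miR-26b had the highest ratio of the 4 and was the only member whose spot ranges stayed apart on both probes. How many of all 284 miRNAs had ranges apart was not counted, so this is not shown to be particular to miR-26b. Probe 1 gave 741 to 831 (median 786) in the gland, and 502 to 561 (median 537) in the flank. Probe 2 gave 1231 to 1482 (median 1362), and 921 to 1064 (median 982). The lowest spot of the gland thus lay above the highest of the flank on each probe, before and after scaling. Scaled signals were 1.36 ± 0.0161 and 1.07 ± 0.0109 (SE over spots), a ratio of 1.28 and a log2 ratio of 0.36 ± 0.02. All 20 spots were higher in the gland, and the SD of their log2 ratios was 0.08. Its probes gave log2 ratios of 0.42 and 0.32, and those of miR-26a gave 0.27 and 0.18.

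miR-101a differed less between the regions. Its probe 1 ran from 85.8 to 109 (median 106) in the gland, and from 70.8 to 88.8 (median 83.6) in the flank. Its probe 2 ran from 117 to 143 (median 127), and from 100.9 to 124 (median 112). The ranges overlapped on both probes. The scaled signal was 0.147 ± 0.00241 (SE over spots) in the gland and 0.136 ± 0.00196 in the flank, a ratio of 1.08 and a log2 ratio of 0.11 ± 0.03 with the main scaling, against 0.23 to 0.35 with the other 4. Of 17 spots usable on both arrays 14 were higher in the gland, and the SD of their log2 ratios was 0.14. The probes gave log2 ratios of 0.17 and 0.07. The software marked 3 of its spots as outliers, at 99.1 in the gland and at 95.7 and 0.968 in the flank, and these were left out. With outlier spots kept the log2 ratio was 0.18.

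miR-101b showed nearly equal signals. On probe 1 the spots ran from 63.3 to 79.6 (median 73.0) in the gland, and from 64.5 to 79.0 (median 70.0) in the flank. Probe 2 ran from 153 to 174 (median 165.5), and from 147 to 179 (median 165.9). The ranges overlapped on both probes, before and after scaling. Scaled signals were 0.151 ± 0.00181 and 0.163 ± 0.00252 (SE over spots), which put the flank 1.08-fold higher with the main scaling and the gland higher with each of the other 4. Of 19 spots 5 were higher in the gland after scaling, and the SD of their log2 ratios was 0.13. On the same probes before scaling, 6 of 10 and 3 of 9 spots were higher in the gland. The software marked 1 spot, at 146 in the gland, as an outlier.

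**Figure D1:**
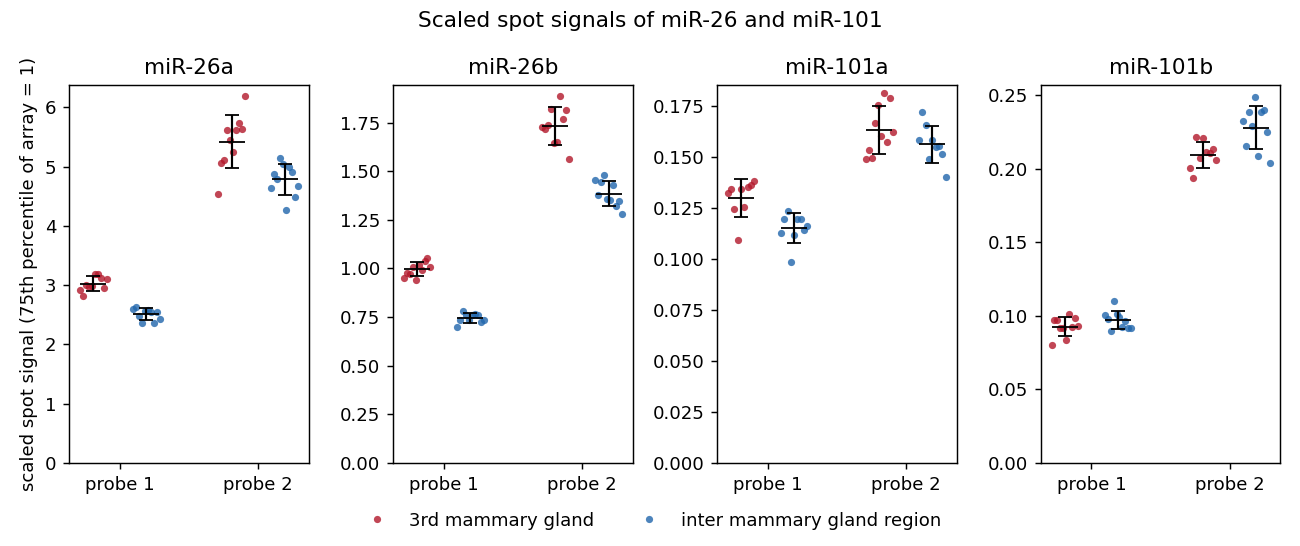
Scaled signal of every spot used, by member and probe, with the gland in red and the flank in blue. The vertical axes are linear, start at 0 and differ between panels, with 1 being the upper quartile over probes that both arrays detected. Horizontal lines are means and bars are SDs over spots. The regions lie apart on both probes of miR-26b and overlap on both probes of miR-101a and miR-101b.

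The deposited total signals per miRNA, which the software computes from the same spots with an error of its own, were not scaled between the arrays. For miR-26a they were 4400.2 ± 324 in the gland and 3395 ± 252 in the flank, a quotient of 1.30. For miR-26b they were 1421 ± 104 and 991 ± 73.4, a quotient of 1.43. For miR-101a they were 153 ± 12.2 and 126 ± 10.4, and for miR-101b 157 ± 13.1 and 151 ± 12.6. Unscaled, the totals of miR-26a, miR-26b and miR-101a lay further apart than the sum of their errors, and those of miR-101b did not. Once scaled by their upper quartile over miRNAs the software called detected on both arrays, the totals gave log2 ratios of 0.17 for miR-26a, 0.32 for miR-26b, 0.07 for miR-101a and -0.14 for miR-101b. The gap then exceeded the sum of the errors for miR-26b alone among the 4. The share of all miRNAs with such a gap was not counted, unscaled or scaled, so neither result is shown to be particular to the members.

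Differences between members of a family within the arrays do not depend on a scaling by 1 factor per array. The log2 ratio of miR-26a minus that of miR-26b was -0.15 ± 0.04 (SE over spots), and that of miR-101a minus that of miR-101b was 0.22 ± 0.04. The SD of single spots, combined over both members, was 0.15 for the first and 0.19 for the second. With the main scaling both differences were larger than their SE over spots, which is technical only. The 3 alternatives built on total signals use the same spots with 1 factor per array and so give the same differences. Under the other 5 both differences kept their sign, from -0.16 to -0.01 for miR-26 and from 0.14 to 0.31 for miR-101. The value of -0.01 came from quantile normalization, which treats each probe by its rank and was added for these differences after the data were seen, so the size of the miR-26 difference depended on the normalization.

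Among all miRNAs detected in both regions the median log2 ratio was 0.05, and the middle 50% lay between -0.14 and 0.22. The ratio of miR-26b ranked 30 of 284 from the highest, that of miR-26a 78, that of miR-101a 117 and that of miR-101b 202. Thus 3 of the 4 lay within the middle 50% and miR-26b above it. The median of all miRNAs was 0.18 with no scaling, 0.21 with the upper quartile over all probes, 0.17 with the median of detected probes and 0.17 with quantile normalization. Relative to that median, the log2 ratio was 0.31 for miR-26b, 0.16 for miR-26a, 0.06 for miR-101a and -0.15 for miR-101b under every scaling by 1 factor per array. With quantile normalization these were 0.24, 0.23, 0.17 and -0.14, so miR-101b lay below the median of all miRNAs there as well. The scalings by 1 factor per array give the same values by construction, so only quantile normalization is a separate check.

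**Figure D2:**
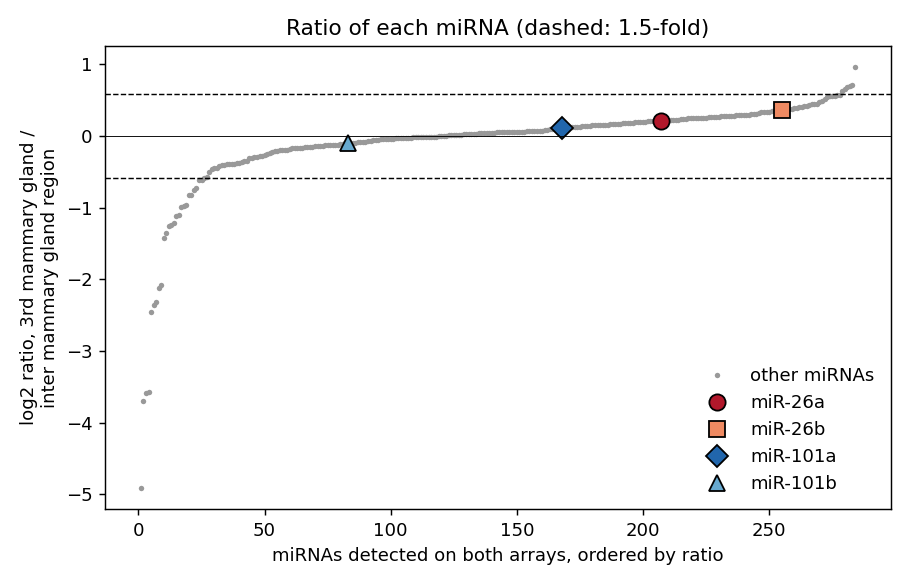
Log2 ratio of the gland to the flank for the 284 miRNAs detected in both, ordered from lowest to highest with the main scaling, with 1 point per miRNA and dashed lines at 1.5-fold. The 4 members lie between the dashed lines, miR-26b at 0.36 and miR-101b at -0.11, and miR-101b is above 0 with the other 4 scalings.

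By log2 ratio alone, which is 1 value from 2 arrays, the nearest other miRNA was miR-431* (0.36) for miR-26b, miR-10b (0.21) for miR-26a, miR-24 (0.11) for miR-101a and miR-223 (-0.11) for miR-101b. Such likeness was common, as 19 other miRNAs lay within 0.05 of miR-26b, 40 of miR-26a, 31 of miR-101a and 27 of miR-101b. Like miR-101b, miR-223 was above 0 with the other 4 scalings.

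The passenger strands, the opposite arms of the hairpins that are usually degraded, were present on the arrays as miR-26b* and miR-101a*. Each had 4 probes of 5 spots, with 0 spots well above background in either region, so no ratio was taken. The mean signal of miR-26b* was 5.34 in the gland and 4.72 in the flank, and that of miR-101a* was -1.42 and -1.60. These means lay within 1 SD of the mean of the negative controls, but several single probes did not. Among these, probe 4 of miR-26b* averaged 13.0 and 9.23, and probe 1 of miR-101a* averaged -2.11 and -4.14.

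Other miRNAs can share part of a seed. Outside the families, miR-144, a miRNA of the red cell lineage, shared bases 2 to 7 with miR-101a, and miR-582-5p shared bases 2 to 7 with miR-101b. Their sequences are shown to set the shared bases beside those above, again with bases 2 to 8 in capitals and from RefSeq (build GRCm38.p6).
miR-144: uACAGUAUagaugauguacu
miR-582-5p: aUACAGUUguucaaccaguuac
Both were detected in both regions. The mean signal of miR-144 was 93.7 in the gland and 77.0 in the flank, a log2 ratio of 0.15 ± 0.03 (SE over spots) with the main scaling and of 0.27 to 0.31 with the other 4. That of miR-582-5p was 71.5 and 64.5, a log2 ratio of 0.02 ± 0.06. Neither reached 1.5-fold under any of the 5 scalings, and the log2 ratio of miR-582-5p was smaller than its SE over spots with the main scaling but between 0.14 and 0.18 with the other 4. No miRNA matched by name to the arrays shared bases 2 to 7 with miR-26a or miR-26b outside that family.

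Further miRNAs are described as acting on Ezh2, and those listed here were 8 let-7 members, miR-98, miR-124, miR-138, miR-214, miR-217, miR-25, miR-32 and miR-30d. Of these 16, 14 were detected in both regions and 0 reached 1.5-fold in either direction under any of the 5 scalings, which is near the background of 2.11% higher and 9.15% lower over all 284. Their median log2 ratio was -0.05, against 0.05 over all 284, and it was between 0.07 and 0.11 with the other 4 scalings. With the main scaling the highest was miR-30d at 0.30 and the lowest let-7i at -0.46, and both kept their sign under the 5 scalings. miR-214, which is also a marker of mesenchyme, was at 0.26 with the main scaling. With quantile normalization miR-214 (0.45) and let-7e (0.42) lay above miR-30d (0.41). miR-124, also a neural marker, and miR-217 were detected in neither region.

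Markers of the cell types that the dissected pieces could hold were measured on the same arrays. All 7 miRNAs of surface and mammary epithelium were detected in both regions. Their median log2 ratio was 0.34 (0.36 to 0.50 with the other 4 scalings). With the main scaling 0 of the 7 reached 1.5-fold, against 6 (2.11%) higher and 26 (9.15%) lower over all 284 miRNAs. miR-200a did so with no scaling, the upper quartile over all probes and the median of the detected probes. With these 3 scalings 15, 19 and 15 of all 284 were higher by as much. The summed scaled signal of the list was 13.9 in the gland and 13.3 in the flank, of which the probes of miR-205 gave 6.78 and 6.88. Such a sum only sets the same probes in one region against the other, and leans towards those with the strongest signal. miR-200a was at 0.51 and miR-429 at 0.40, while miR-203, a miRNA of differentiating skin, was at -0.31. Epithelial miRNAs were thus detected in the flank as well.

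Striated muscle was the list that differed most. All 4 of its miRNAs were detected in both regions and all 4 were over 1.5-fold lower in the gland under each of the 5 scalings, from -1.12 for miR-1 to -1.43 for miR-206 with the main scaling. Over all 284 miRNAs 26 (9.15%) were lower by as much with the main scaling, and 22 or 23 with the other 4. The summed scaled signal was 2.09 in the gland and 5.02 in the flank, of which the probes of miR-133b gave 0.907 and 2.17. Of 6 blood miRNAs 5 were detected in both regions, with a median of -0.06 that was above 0 with the other 4 scalings, and miR-142-5p was detected in neither. Their summed scaled signal was 7.93 in the gland and 6.06 in the flank, of which the probes of miR-451 gave 7.23 and 5.32. The log2 ratio of miR-451, a red cell miRNA, was 0.44. It reached 1.5-fold with the upper quartile over all probes and with quantile normalization, where 19 and 14 of all 284 were higher by as much. The log2 ratio of miR-486, which is also on the blood list, was -0.39 and stayed below 0 under each of the 5 scalings.

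Of the 4 mesenchymal names 3 were found on the arrays, since miR-199b was not found under that name, and the 3 had a median of 0.26 with the main scaling and of 0.38 to 0.46 with the other 4. Their summed scaled signal was 35.1 in the gland and 28.8 in the flank, of which the probes of miR-199a-3p gave 21.8 and 17.5. The vessel strands miR-126-3p and miR-126-5p were at 0.05 and 0.21 with the main scaling, and at 0.17 to 0.21 and 0.32 to 0.36 with the other 4. Their summed scaled signal was 2.75 in the gland and 2.64 in the flank. The neural miRNAs miR-124 and miR-9 were detected in neither region, with sums of 0.0239 and 0.00937. The part of any of these cell types in the ratios of miR-26 and miR-101 was not tested.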

How the data were processed

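Spots were quantified by the authors in Feature Extraction, 10.7.3.1 per the file headers, which subtracts background. The intensity deposited for a spot is linear, can fall below 0 and carries no normalization between arrays. The value table of the series repeats the total intensity that the software gives a miRNA, with 0.1 standing in for a miRNA not called detected. The methods name GeneSpring for normalization, and its settings are not given in the sources used here.

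Groups were taken from the sample labels. Without control and outlier spots, spots were averaged per probe, divided by the upper quartile (75th percentile) over probes that both arrays detected, and averaged per miRNA. Detection of a probe required over 50% of spots well above background, and that of a miRNA required 1 such probe. SEs come from the spread over spots. The other scalings were none, the upper quartile over all probes, the median of the detected probes, and quantile normalization. Other alternatives covered the signal, normexp (offset 50, on the median pixel signal), outlier spots, the summary of spots, the probes, detection, dim miRNAs and the threshold. Precision is limited by the number of arrays. The steps were tested on simulated data, in which the changes were larger than those of the members. That test does not show how well differences as small as theirs are measured.

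Named miRNAs were the 4 members, their passenger strands, miRNAs sharing bases 2 to 7 or 2 to 8 with a member, the nearest log2 ratio to each member, the listed miRNAs acting on Ezh2 and the cell type markers. The members and lists were chosen with earlier results of these data known. Mature sequences and their positions were taken from RefSeq. The array design names another mouse assembly, so enclosing genes were found among RefSeq genes of GRCm38.p6 alone. Normexp was run in limma 3.58.1 under R 4.3.3. All other steps used pandas 2.3.3 and numpy 2.4.6 under Python 3.11.15, and plots used matplotlib 3.10.9.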

Additional observations from a re-analysis of the deposited data

How the results depend on the processing

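No paired analysis was possible because there was 1 array for the gland and 1 for the flank. Under 11 alternatives each, the log2 ratios of miR-26a, miR-26b and miR-101a stayed above 0, that of miR-101b was above 0 under 5, and 0 of the 4 members reached 1.5-fold. These are not 11 separate checks. The scaled totals and the scaled deposited table gave the same values, and the totals come from the same spots as the main result. Moves larger than the SD over spots were as follows, and their cause was not tested beyond the change of scaling itself. With no scaling the log2 ratio was 0.34 for miR-26a and 0.49 for miR-26b. With the upper quartile over all probes it was 0.37 for miR-26a, 0.52 for miR-26b, 0.27 for miR-101a and 0.054 for miR-101b. With the median of the detected probes it was 0.48 for miR-26b. With quantile normalization it was 0.40 for miR-26a, 0.35 for miR-101a and 0.036 for miR-101b. With total signals and no scaling it was 0.37 for miR-26a, 0.52 for miR-26b, 0.27 for miR-101a and 0.057 for miR-101b. The differences within each family moved by less than that spread under 5 alternatives each, 1 of them chosen after seeing the data, and total signals give the same differences by construction. For miR-26 the spread, 0.15, was about as large as the difference itself, -0.15, so staying within it says little of stability. Quantile normalization took this difference to -0.01.

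Over all miRNAs detected in both, 6 were higher by 1.5-fold or more as reported. This count was 15 unscaled, 19 with the upper quartile over all probes, 15 with the median and 14 with quantile normalization. It was 20 with unscaled totals and 2 after normexp. The software's own detection call picks another set of miRNAs, of a size not given here, and 13 of that set were higher. At 2-fold, over the first set, 0 were higher, and the count lower was 16 in place of 26. The lowest spots used for miR-101b, 63.3 and 64.5, lay above the highest negative controls not marked as outliers, 17.3 and 19.2. Having 1 array per region gives no biological spread.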
